A study of Mus musculus with 3 samples.

Results

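The expression of 8 genes of fatty acid handling was followed through the mouse uterus at pregnancy day 7.5: the fatty acid binding proteins Fabp3, Fabp4 and Fabp5, the fatty acid receptor Cd36, the vascular lipases Lipg and Lpl, the lipid droplet coat protein Plin2 and the droplet lipase Pnpla2. They were taken by symbol from the 32285 genes of each matrix, and all 8 were found. The data are Visium spatial transcriptomes, in which each barcoded spot of a slide captures the RNA of a small piece of a frozen uterine section and can hold several cells. The series has 1 group and no treatment or mutant: untreated females, kept on normal chow until 8 weeks of age, were mated with stud males and dissected on day 7.5. Strain is not given in the sources used here. Library 1-2 holds sections of biological replicates 1 and 2 in 1 matrix and counts as 1 replicate, beside libraries 3 and 4, so n is 3 at most.

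The comparison that these data allow is between regions of the tissue. Spots with at least 1000 UMIs (unique molecular identifiers, 1 per captured molecule) numbered 1773, 1080 and 1086 in libraries 1-2, 3 and 4, with medians of 8216, 26547 and 28286 UMIs. Clustering of these spots on other genes gave 10 regions, which are called by number and leading genes: 1 (Stmn2, Dppa1, Wnt6), 2 (Olr1, Pdzk1ip1, Kcnn4), 3 (Spp1, Gzme, Gzmd), 4 (Pappa2, Ccl6, Spon2), 5 (Mrgprg, S100a8, Klk8), 6 (Nppa, Tnni2, Igfbp2), 7 (Tnnc1, Ptx3, Htra1), 8 (Fxyd3, Prxl2a, Cyp26b1), 9 (Prl4a1, H19, Plet1) and 10 (Pcp4, Fbxl22, Spock2). Markers of a pregnant uterus were present: 8 smooth muscle markers summed to between 19758 and 30663 CPM (a gene's UMIs scaled to 1000000 UMIs of a region and library) in region 10, and 10 decidual stroma markers to between 78706 and 173540 CPM in region 7. Barcodes shared between libraries numbered 780 (1-2 and 3), 676 (1-2 and 4) and 825 (3 and 4), as slides of this kind carry the same set of position barcodes.

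Long chain fatty acids reach cells as albumin-bound acids or inside lipoproteins, whose triglycerides and phospholipids are cut at the vessel wall by lipases such as LPL and endothelial lipase, the product of Lipg. CD36 helps fatty acids into the cell, and the fatty acid binding proteins carry them through the cytosol to membranes, mitochondria or the nucleus. Surplus is stored as triglyceride in lipid droplets, which perilipin 2 (Plin2) coats and adipose triglyceride lipase (Pnpla2) hydrolyses. In rodents, the uterine stroma around the implanted embryo turns into decidua, which nourishes the embryo before the placenta forms.

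Fabp3, Fabp4 and Fabp5 are paralogs, so their coding sequences are shown to tell how far reads could be confused between them. In GENCODE release M21 (GRCm38), Fabp4 lies at chr3:10204088-10208576 on the minus strand and Fabp5 at chr3:10012548-10016607 on the plus strand, 187480 bases apart, and Fabp3 lies at chr4:130308595-130315463 on the plus strand. The first 90 coding bases are printed with capitals where a base matches in the alignments to both of the other genes.
Fabp3: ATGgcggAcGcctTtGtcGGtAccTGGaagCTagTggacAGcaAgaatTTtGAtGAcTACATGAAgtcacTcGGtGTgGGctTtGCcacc
Fabp4: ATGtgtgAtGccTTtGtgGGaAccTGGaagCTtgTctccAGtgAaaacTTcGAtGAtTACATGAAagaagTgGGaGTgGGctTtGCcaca
Fabp5: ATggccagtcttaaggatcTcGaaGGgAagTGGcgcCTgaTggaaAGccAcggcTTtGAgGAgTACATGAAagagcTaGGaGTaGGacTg
Over the whole coding sequence, identity was 66.5% between Fabp3 and Fabp4, 62.2% between Fabp4 and Fabp5 and 58.2% between Fabp3 and Fabp5. The longest run of identical bases in their transcripts was 14 bases for Fabp3 and Fabp4 and 12 for Fabp4 and Fabp5, and Fabp3 and Fabp5 shared no run of 12 or more.

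All 8 genes passed the filter on low counts, and 7 of them were called in at least 1 region. Each gene was tested in each region against the mean of the other 9 regions (edgeR's quasi-likelihood test, library as a block). A gene was called where the Benjamini-Hochberg adjusted p was under 0.05 and the log2 fold change at least 1 in size. Of 80 gene and region pairs, 23 were called higher, 21 lower and 36 neither. With all other spots of a library pooled as the comparison, 14 were called higher, where 8.41% of the pairs of all genes were, and 34 lower, where 14% were. With the library as a block, p-values measure how far differences between regions vary over 3 libraries of 1 group. In summed spots, fewer cells of a type and less RNA per cell cannot be told apart.

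The genes were called higher most often in regions 9 and 7. As the 8 were chosen with earlier results of these data known, these counts are a description and no test of the set. In region 9, 6 of 8 were higher, where 13.2% of all 6333 genes tested were, and 1 was lower, where 15.5% of all genes were. In region 7, 5 were higher (14.4% of all genes) and 1 lower (17.5%). With pooled other spots as the comparison, 3 were higher in region 9 (9.88% of all genes) and 4 in region 7 (11.8%). Region 5 had 3 higher (14% of all genes) and 1 lower (8.81%), and region 2 had 3 higher (7.04%) and 3 lower (10.6%). The opposite held in region 1, with 1 higher (6.33%) and 5 lower (6.17%), and in region 3, with 4 lower (8.72%) and 0 higher (8.89%). Region 4 had 1 higher (13%) and 3 lower (6.3%), and region 10 had 1 higher (14.3%) and 3 lower (11.5%). Region 6 had 1 higher (13.1%) and 0 lower (3.44%), and region 8 had 2 higher (9.54%) and 0 lower (2.65%). Of these counts of 0 by edgeR, 0 genes in region 3, 1 in region 6 and 2 in region 8 had an unadjusted p under 0.05 in that direction, and DESeq2 called 0 in each.

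**Figure D1:**
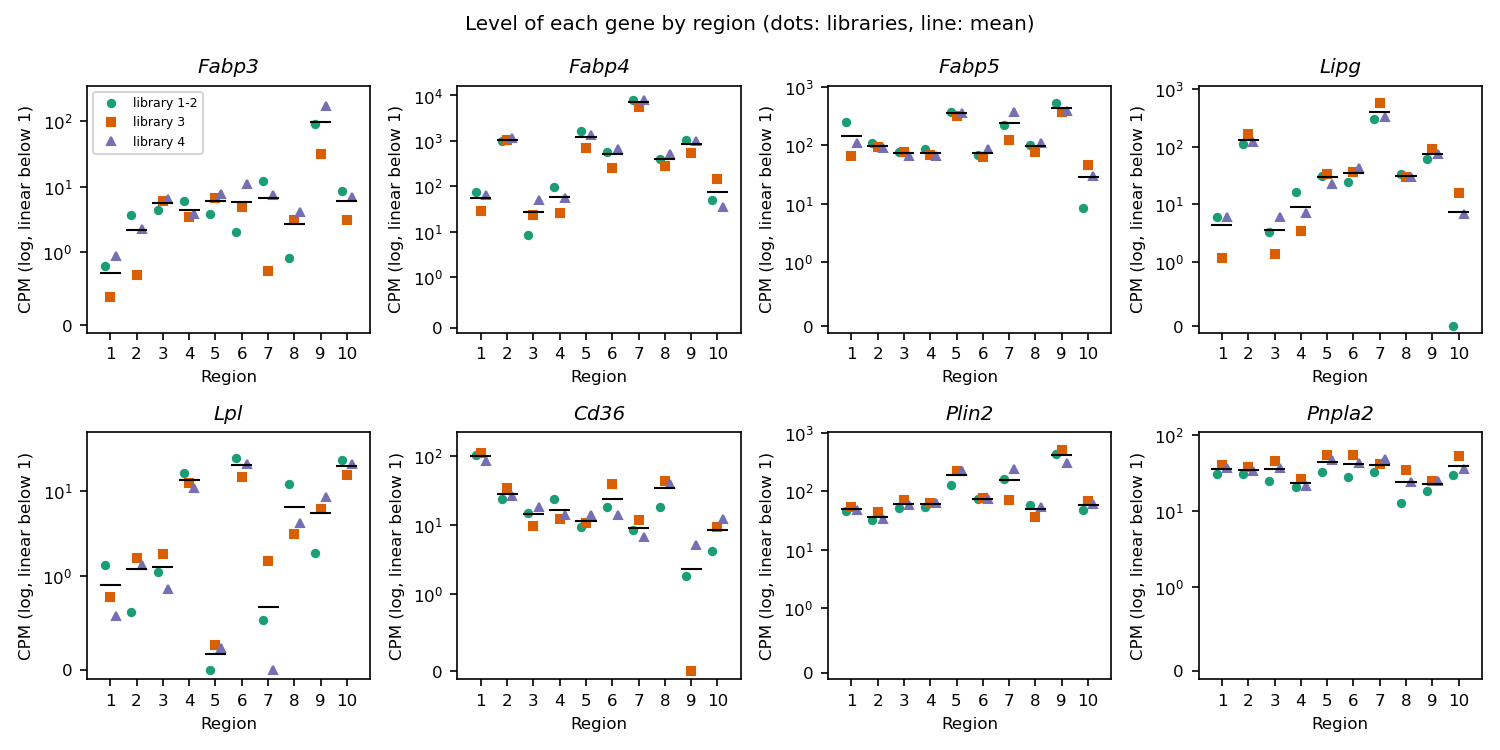
Level of each of the 8 genes (y axis, CPM, log scale that is linear below 1) in the 10 regions (x axis), with 1 symbol per library and a line at the mean of 3 libraries. Fabp4 and Lipg peak in region 7, Fabp3, Fabp5 and Plin2 in region 9, Cd36 in region 1 and Lpl in regions 6 and 10, while Pnpla2 stays between 22.8 and 44.6 CPM on average.

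**Figure D2:**
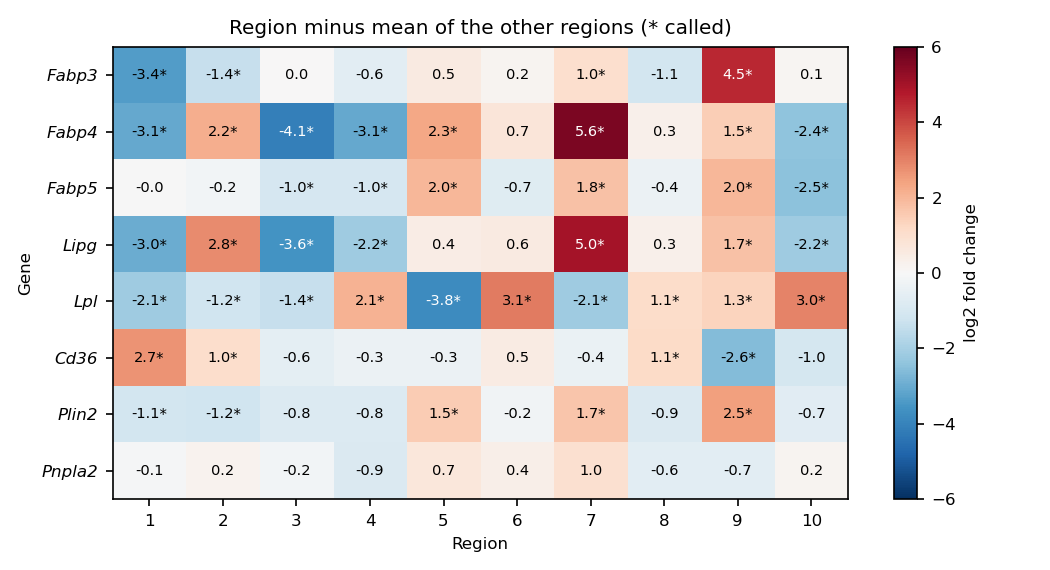
Log2 fold change of each gene (down the page) in each region (across) against the mean of the other regions, with a star where the change was called. Fabp4 in region 7 (5.63) and Lipg in region 7 (5.0) have the highest values, and Pnpla2 has no star.

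Cd36 was the gene of region 1. It encodes a scavenger receptor that binds long chain fatty acids and oxidized lipoproteins. Its level in region 1 was 104, 108 and 84.6 CPM in libraries 1-2, 3 and 4, against 18.4, 43.1 and 39.5 CPM in region 8, the next region in the order, and 23.5, 34.4 and 26.5 CPM in region 2. Region 1 stood above every other region in every library, and the ranges of regions 8 and 2 overlapped. The log2 fold change in region 1 was 2.68 ± 0.16 (SE; edgeR's quasi-likelihood test, adjusted p = 2.9e-14). Of its 2397 UMIs, 57.7% came from region 1, which held 19.0% of all UMIs. Cd36 was also called higher in regions 8 (1.13 ± 0.25) and 2 (1.04 ± 0.20), calls that ended with pooled other spots as the comparison (0.21 and 0.02) and without library 3 (0.997 and 0.83).

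Cd36 was lowest where most of the other genes were high. Region 9 had 1.86, 0 and 5.16 CPM, or 1, 0 and 14 UMIs, against 98.8 ± 12.5 CPM in region 1 (SD, n = 3), and its log2 fold change was -2.60 ± 0.44 (edgeR's quasi-likelihood test, adjusted p = 8.7e-06). In library 3 the count of 0 allows up to 2.60 CPM (3 counts, counting error only). CD36 is known from small vessels of other tissues. The 12 endothelial markers summed to between 1852 and 2284 CPM in region 5, where Cd36 averaged 11.3 ± 2.48 CPM, and to between 1137 and 1527 CPM in region 1. Over the 30 region sums (10 regions in 3 libraries, which share library and depth) its log2 level correlated with the endothelial list at r = 0.08. Every r over these sums is of log2 levels centred within each library. The genes whose pattern was most like that of Cd36 were Sned1 (r = 0.90), Prps2 (0.85) and Sptbn1 (0.84).

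Fabp4 was the most concentrated in region 7. It encodes the adipocyte fatty acid binding protein, known from fat cells, macrophages and small vessels. Region 7 had 8093, 5712 and 7834 CPM in libraries 1-2, 3 and 4, against 1654, 682 and 1364 CPM in region 5, the next in the order. All 3 libraries of region 7 lay above all those of the other regions, and regions 5, 2 and 9 overlapped with each other. The log2 fold change in region 7 was 5.63 ± 0.19 (edgeR's quasi-likelihood test, adjusted p = 3.0e-21). Region 7 gave 57.0% of the 79162 UMIs of Fabp4 and 8.19% of all UMIs.

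For Fabp4, 4 regions were called higher and 4 lower. Beside region 7, the log2 fold change was 2.34 ± 0.22 in region 5, 2.17 ± 0.23 in region 2 and 1.49 ± 0.24 in region 9. These 3 calls rest on the comparison with the mean over regions on the log scale: against all other spots pooled, of which region 7 is a part, they were 0.48, 0.34 and -0.27. The lowest level was in region 3, with 8.32, 23.9 and 50.9 CPM, a mean of 27.7 ± 21.6 CPM (SD, n = 3). The mean of region 7 was 7213 ± 1307 CPM, a 260-fold difference. After thinning each spot to 3000 UMIs, 100% of the spots of region 7 had a Fabp4 UMI in each library, against 2.5%, 7.28% and 11.8% of spots in region 3. Over all regions these shares were 51.6%, 38.1% and 47.3% thinned and 64.2%, 67.4% and 77.5% unthinned.

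Fabp4 followed a decidual prolactin gene. Prl8a2, a member of the prolactin family known as a product of rodent decidua, had the most similar pattern, with r = 0.99 over the 30 region sums. Erv3 (0.97) and Gdpd2 (0.97) followed. This ranking took tested genes with a mean log2 CPM of at least 3, without clone or Gm names. Across spots, Spearman's rho of Fabp4 with Prl8a2 was between 0.75 and 0.84 in the 3 libraries, a value that holds the differences between regions. Within region 7 rho was between 0.13 and 0.44, within region 2 between 0.75 and 0.87, and within region 3 between 0.05 and 0.21. The level of Prl8a2 was 92150 ± 44513 CPM in region 7, against 238 ± 109 CPM in region 3. Fabp4 counts per 100 Prl8a2 counts varied far less than either level: across the 10 regions they ran between 2.25 and 8.68 in library 1-2, 5.81 and 16.7 in library 3, and 8.75 and 14.1 in library 4. The part that RNA spreading between neighbouring spots has in the low levels outside region 7 was not tested.

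Markers of fat cells, macrophages and vessels, in which FABP4 is best known, were mixed in region 7. There 7 of the 8 adipocyte markers (Adipoq, Plin1, Cidec, Lep, Car3, Cfd and Pck1) had no UMI in any library, and the summed list, there Retn alone, was between 5.18 and 173 CPM. Its mean of 78.8 CPM was the highest of the 10 regions, before 33.7 CPM in region 4, and its r with Fabp4 over the 30 sums was 0.42. The 8 macrophage markers summed to between 190 and 518 CPM in region 7, against 801 to 1098 CPM in region 4, with an r of -0.36. Their members differed: Csf1r averaged 192 CPM in region 7, against 49.9 CPM in region 4, and Cd68 98.6 CPM, against 37.1 CPM, while C1qa had 3.08 CPM, against 159 CPM, and Mrc1 had no UMI in region 7. The part of these cells in the level of Fabp4 was not tested. The endothelial list, with all 12 markers detected in each library, summed to between 724 and 914 CPM in region 7, less than in region 5, and its r was 0.20. A CPM is a share of all UMIs, so the decidual transcripts of region 7, given above, lower the CPM of all other genes there.

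**Figure D3:**
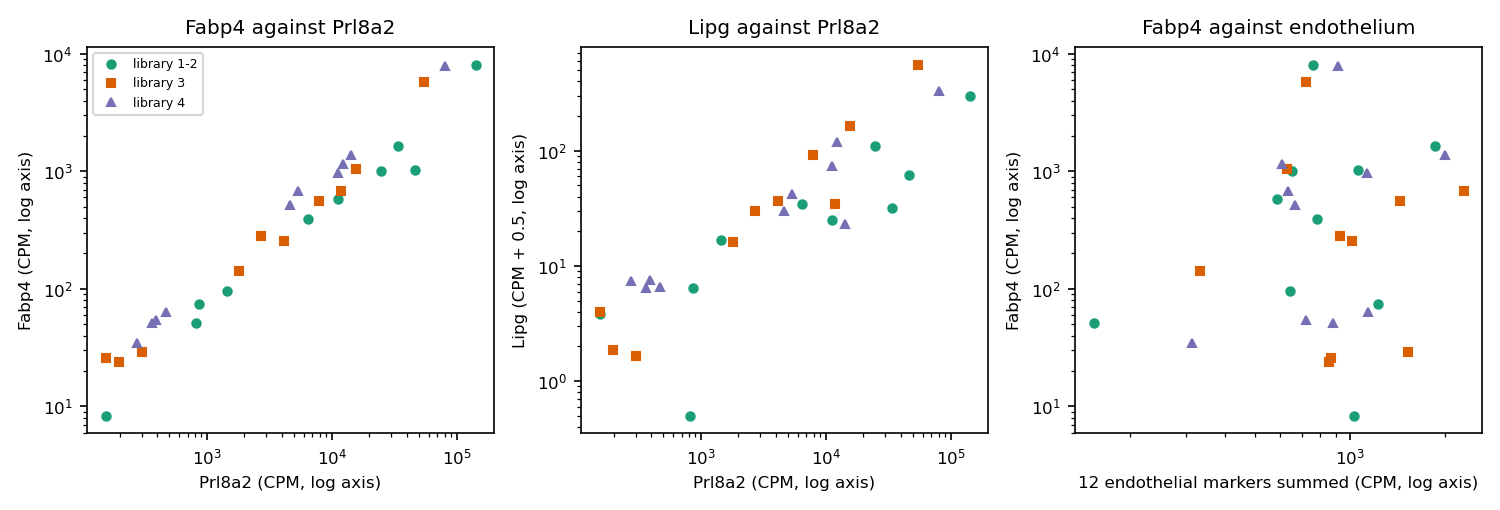
Left and middle, Fabp4 (CPM) and Lipg (CPM + 0.5) against Prl8a2 (CPM), and right, Fabp4 against the sum of 12 endothelial markers (CPM), all on log axes, with 1 point per region and library. The r of Fabp4, on log2 levels centred within each library, is 0.99 with Prl8a2 and 0.20 with the endothelial list. The points shown are not centred. Lipg scatters more around Prl8a2.

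Fabp3 was the gene of region 9. It encodes the heart-type binding protein, known for carrying fatty acids to mitochondria in muscle. Region 9 had 89.5, 31.2 and 172 CPM in libraries 1-2, 3 and 4, against 12.1, 0.74 and 7.44 CPM in region 7, the next in the order. Every library of region 9 lay above every library of any other region. The log2 fold change in region 9 was 4.53 ± 0.24 (edgeR's quasi-likelihood test, adjusted p = 2.3e-16), and 66.0% of the 837 Fabp3 UMIs came from region 9, which held 5.94% of all UMIs. Fabp3 was lowest in region 1, at 0.72 ± 0.30 CPM (log2 fold change -3.35 ± 0.53).

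Its call in region 7 (1.02 ± 0.42) ended under every alternative run except the one without library 3. Library 3 had 1 Fabp3 UMI in region 7, against 23 and 21 in libraries 1-2 and 4, and the change was 0.38 without library 1-2, 1.24 but not called without library 4, and -1.41 in the region that matched region 7 at a finer resolution. Region 9 carried markers of the conceptus: 8 trophoblast markers summed to between 2385 and 3598 CPM, 8 markers of visceral endoderm and yolk sac to between 424 and 1154 CPM, and 8 markers of the embryo proper to between 81.6 and 298 CPM. Over the 30 sums Fabp3 correlated with these lists at r = 0.63, 0.73 and 0.86, in this order. Genes most like Fabp3 were Epop (r = 0.85), Igf2 (0.85), a growth factor of fetal and placental tissue, and Sfn (0.84).

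Fabp5 was high in regions 9, 5 and 7 together. It encodes the epidermal binding protein, which is known from skin, endothelium and macrophages. Region 9 had 528, 374 and 398 CPM in libraries 1-2, 3 and 4, region 5 had 375, 327 and 363 CPM, and region 7 had 226, 126 and 375 CPM. The ranges of neighbours in this order overlapped. Its log2 fold changes were 2.00 ± 0.20, 1.98 ± 0.19 and 1.77 ± 0.20 in regions 9, 5 and 7 (edgeR's quasi-likelihood test, adjusted p between 1.8e-10 and 6.2e-09). Region 10 was lowest, with 8.52, 46.7 and 29.3 CPM, and a log2 fold change of -2.48 ± 0.42. The gene most like Fabp5 was Cdh5 (r = 0.94), which encodes the vascular cadherin, followed by Sh2b2 (0.92) and Sri (0.91).

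The 3 binding proteins thus differed in order. Cdh5 averaged 424 ± 49.0 CPM in region 5 and 419 ± 61.9 CPM in region 9, against 11.2 ± 6.54 CPM in region 10. Other endothelial markers differed from it in region 9. In regions 5 and 9, Esam averaged 322 and 253 CPM, but Cldn5 265 and 64.4 CPM, Egfl7 286 and 98.6 CPM and Emcn 158 and 42.8 CPM. In region 7 Cdh5 averaged 207 CPM and Cldn5 18.3 CPM. The summed endothelial list correlated with Fabp5 at r = 0.80 over the 30 sums, with Fabp4 at 0.20 and with Fabp3 at 0.12. Fabp5 correlated with the trophoblast list at 0.81 and with that of visceral endoderm and yolk sac at 0.77. Across spots, rho of Fabp5 with the endothelial list was only between 0.09 and 0.15 in the 3 libraries, and with Prl8a2 between 0.13 and 0.26. Region 1 was uneven for Fabp5, with 252, 65.3 and 111 CPM in libraries 1-2, 3 and 4, and was not called. The calls of Fabp5 as lower in regions 3 and 4 (-1.02 and -1.01) lay close to the threshold and ended without library 4 (both -0.81), and that in region 3 also without library 1-2 (-0.95).

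Of the other binding proteins of the family, Fabp7 was tested, and 5 (Fabp1, Fabp2, Fabp6, Fabp9 and Fabp12) had between 0 and 36 UMIs in all. Fabp7, the brain-type member, had 8.03, 5.96 and 3.24 CPM in region 2 and was called higher there (2.43 ± 0.33) and in region 7 (2.15 ± 0.47). Among 7 genes tested for uptake and activation beside Cd36, Acsl3 and Acsl4, which join fatty acids to coenzyme A, were called higher in region 7 (3.06 ± 0.19 and 1.78 ± 0.13). Acsl3 had 85.5, 27.4 and 135 CPM in region 7, and was higher in regions 5 and 9 as well. Slc27a1, a fatty acid transport protein, was called lower in region 7 (-2.78 ± 0.37).

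Lipg followed Fabp4. It lies on chromosome 18, and Lpl on chromosome 8. Endothelial lipase is known mainly as a phospholipase of high density lipoproteins, made by vessels. Its level in region 7 was 297, 560 and 328 CPM in libraries 1-2, 3 and 4, against 110, 164 and 119 CPM in region 2 and 61.5, 91.1 and 73.7 CPM in region 9. The ranges of these 3 regions were separate from each other, in this order. Region 7 held 45.5% of the 4927 Lipg UMIs, and its log2 fold change was 5.0 ± 0.17 (edgeR's quasi-likelihood test, adjusted p = 1.8e-21). Changes in regions 2 and 9 were 2.82 ± 0.19 and 1.75 ± 0.25, of which the call in region 9 ended with pooled other spots (0.28).

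Lipg and Fabp4 parted in region 5. Over the 30 sums their log2 levels correlated at r = 0.93, and rho across all spots was between 0.42 and 0.49. Within region 7 rho was between -0.12 and 0.23, and within region 2 between 0.25 and 0.46. In region 5 Lipg had 31.5, 33.8 and 22.6 CPM, under its level in region 2 in every library, while Fabp4 in region 5 overlapped with region 2. The difference between regions 5 and 2 was not itself tested. The endothelial list correlated with Lipg at r = 0.16. The genes most like Lipg were Rgcc (r = 0.96), Gdpd2 (0.94) and Erv3 (0.94).

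Lpl had its highest levels in other regions than Lipg. Lipoprotein lipase, which frees fatty acids from the triglycerides of chylomicrons and very low density lipoproteins, gave 273 UMIs in all. Region 6 had 24.5, 14.8 and 20.9 CPM in libraries 1-2, 3 and 4, region 10 had 23.4, 15.6 and 20.7 CPM, and region 4 had 16.5, 12.6 and 10.9 CPM. These 3 regions overlapped with each other. Log2 fold changes were 3.10 ± 0.33 in region 6, 3.00 ± 0.42 in region 10 and 2.10 ± 0.27 in region 4 (edgeR's quasi-likelihood test, adjusted p between 5.1e-09 and 6.7e-07). In region 5 the 3 libraries had 0, 1 and 1 UMIs and in region 7 they had 1, 2 and 0, so that the fitted values there (-3.79 ± 0.65 and -2.14 ± 0.71) rest on few molecules. The call in region 7 ended without library 4 (-1.37).

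Regions 6, 10 and 4 were those of muscle and stroma markers. The 6 markers of undecidualized stroma summed to between 11366 and 14259 CPM in region 6, against 204 to 224 CPM in region 7. Lpl correlated with the smooth muscle list at r = 0.74, with that stroma list at 0.72 and with the adipocyte list at -0.07 over the 30 sums. With the lists of uterine epithelium and blood it correlated at 0.53 and 0.50. Region 6 held these too, at 1701 to 3579 and 984 to 32918 CPM. Their part in the level of Lpl was not tested. In region 4, 6 of the 8 adipocyte markers were detected in every library, with a sum of 17.8 to 53.1 CPM. The list is uneven, and Retn was highest in region 7 (78.8 CPM). Cfd (14.96 and 4.43 CPM), Car3 (8.09 and 3.06 CPM) and Adipoq (2.38 and 1.02 CPM) were highest in regions 4 and 6, which are among those of Lpl. In region 6, however, 0 of the 8 adipocyte markers were detected in every library. The SD over libraries there was 7.67 CPM for Cfd and 1.77 CPM for Adipoq, above their means. In region 10, also high in Lpl, Adipoq had no UMI and Cfd averaged 0.58 CPM. The part of these markers in the level of Lpl was not tested. Most like Lpl were Rplp0 (r = 0.91), a ribosomal protein gene, Tpm2 (0.90), a tropomyosin of muscle, and Sgce (0.90). The calls of Lpl as higher in regions 8 and 9 (1.09 and 1.32) ended with pooled other spots (0.84 and 0.97) and without library 4 (1.36 and 0.60), and that in region 8 also without library 1-2 (0.49).

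The partners of these lipases were divided between the same regions. Gpihbp1, known to hold LPL on the capillary wall, had 657, 756 and 597 CPM in region 7 and 446, 627 and 419 CPM in region 2, with log2 fold changes of 3.13 ± 0.14 and 2.20 ± 0.15. Angptl4, a secreted inhibitor of LPL, had 160, 56.0 and 116 CPM in region 10 and was called higher in regions 10, 8, 6 and 4 (2.59, 2.03, 1.98 and 1.04). It was lowest in region 7, at 3.35 ± 1.09 CPM (-2.44 ± 0.34). Gpihbp1 was thus high where Lpl had 3 UMIs. Angptl4 was high in the regions of Lpl and also in region 8, where Lpl averaged 6.40 CPM.

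**Figure D4:**
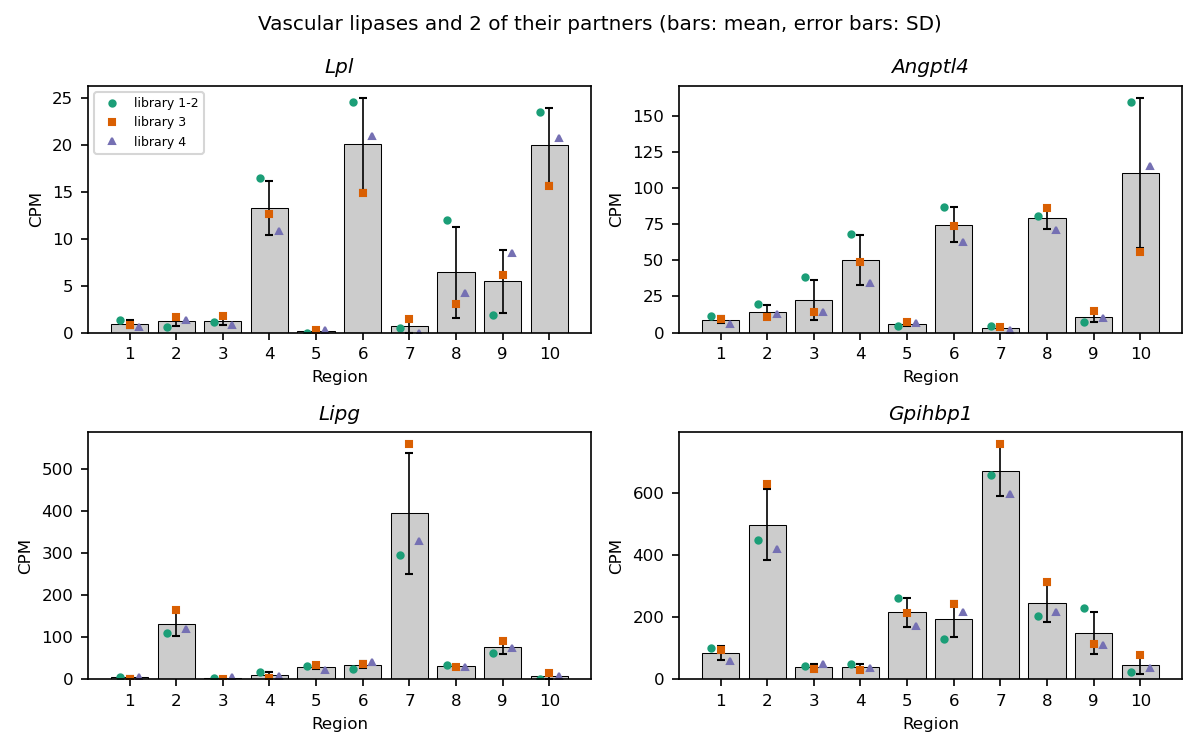
Lpl, Angptl4, Lipg and Gpihbp1 (CPM, y axis) in the 10 regions (x axis), with bars at the mean of 3 libraries, error bars of 1 SD and 1 symbol per library. Lpl and Angptl4 are high in regions 4, 6 and 10, and Lipg and Gpihbp1 in regions 7 and 2.

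Other lipoprotein genes had their own regions. Apoc2, the activator of LPL, had 175, 0.87 and 512 CPM in region 9 (6.03 ± 0.30), a level carried by libraries 1-2 and 4. Vldlr, a receptor for triglyceride-rich lipoproteins, was called higher in regions 5 (1.84 ± 0.09) and 7 (1.16 ± 0.11) and was lowest in region 3, at 12.5 CPM on average. Of the 6 genes of this list tested beside Lipg and Lpl, 3 were called higher and 1 lower in region 7, where 14.4% and 17.5% of all genes were, with a median log2 fold change of 0.60, against -0.08 over all genes tested.

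Plin2 was highest in region 9. Perilipin 2 coats lipid droplets in most cell types and is degraded without them. It had 444, 510 and 302 CPM in region 9 in libraries 1-2, 3 and 4, against 130, 225 and 227 CPM in region 5 and 162, 70.3 and 239 CPM in region 7. Region 9 was above every other region in every library, while regions 5 and 7 overlapped. Log2 fold changes were 2.47 ± 0.17 in region 9, 1.53 ± 0.18 in region 5 and 1.67 ± 0.19 in region 7 (edgeR's quasi-likelihood test, adjusted p between 3.1e-13 and 9.8e-09). Plin2 was lowest in region 2, at 36.9 ± 6.44 CPM (-1.18 ± 0.23), so that regions 7 and 2, both high in Fabp4 and Lipg, differed in it.

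The genes most like Plin2 were Prl8a9 (r = 0.94), another prolactin family gene, Cd82 (0.93) and S100a1 (0.93). Prl8a9 averaged 1504 ± 358 CPM (SD, n = 3) in region 9, beside 391 ± 183 CPM in region 5 and 333 ± 359 CPM in region 7. Plin2 correlated with the trophoblast list at r = 0.80 and with the decidual list at 0.48 over the 30 sums. The other conceptus lists were as close, with 0.80 for visceral endoderm and yolk sac and 0.77 for the embryo proper. Region 9 also held the decidual list, at 11553 to 53422 CPM. Across the spots of region 9, rho of Plin2 with Prl8a2 was between 0.34 and 0.46 in the 3 libraries. The part of conceptus or decidua in the level of Plin2 was not tested. After thinning to 3000 UMIs, 58.9%, 73.2% and 45.1% of spots in region 9 had a Plin2 UMI, against 8.88%, 13.1% and 8.92% in region 2.

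Finer regions (resolution 1.0 in place of 0.6, 17 regions) divided several regions whose levels were not even. In region 1, Cd36 had 122, 128 and 87.9 CPM in finer region 2, against 53.8, 75.9 and 57.3 CPM in finer region 11. The endothelial list went the same way, with 1449, 2060 and 1506 CPM, against 866, 902 and 813 CPM. Region 5, with more of these markers than region 1, had less Cd36, as given above. The part of vessels in the level of Cd36 was not tested. In region 2, Lipg had 160, 212 and 152 CPM in finer region 6, against 73.0, 28.5 and 55.5 CPM in finer region 5, and Fabp4 had 1277, 933 and 1259 CPM, against 793, 134 and 321 CPM. These pairs did not overlap and were not tested. All spots of finer region 6 came from region 2, but only 84.8% of those of finer region 5. In library 3, finer regions 6 and 5 held 1241 and 288 Fabp4 UMIs, against 4532 in region 2. Part of region 2 thus fell in other finer regions, and this pair does not show all of it. Region 7 split into finer region 15, all of whose spots came from it, and finer region 8, with 74.7% of its spots from it. In library 3, region 7 held 55 spots but finer region 8 held 103. The values of finer region 8 in library 3 are thus partly those of other regions. Plin2 had 294 and 404 CPM in finer region 15 in libraries 1-2 and 4, against 55.8, 62.0 and 49.2 CPM in finer region 8 in libraries 1-2, 3 and 4. Fabp5 had 384 and 636 CPM in finer region 15, against 101, 119 and 83.5 CPM in finer region 8. Library 3 had 3 spots of finer region 15 and gives no value for it, and it also had the lowest Plin2 and Fabp5 of region 7. The 8 macrophage markers summed to 464 and 847 CPM in finer region 15, against 108 to 136 CPM in finer region 8. The trophoblast list summed to 411 and 388 CPM, against 148 to 167 CPM. In region 7 as a whole, the macrophage list was mainly Csf1r (192 CPM on average) and Cd68 (98.6 CPM). C1qa had 3.08 CPM there and Mrc1 no UMI, so the sum alone does not show more macrophages in finer region 15. The part of either list in the difference was not tested, and neither was the difference itself.

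Lipg did not share that division. It had 294 and 312 CPM in finer region 15, against 303, 420 and 306 CPM in finer region 8. The region matched to region 7 at this resolution was finer region 8, in which Fabp5 (0.02) and Plin2 (-0.32) were not called higher, while Fabp4 and Lipg were.

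Region 9 split by the conceptus marker lists. Finer region 17 had 25, 0 and 27 spots, with yolk sac markers at 2448 and 2977 CPM and embryo proper markers at 1003 and 885 CPM in libraries 1-2 and 4. Finer region 12 had 43, 41 and 55 spots, with trophoblast markers at 2887 to 3598 CPM and embryo proper markers at 81.6 to 100.3 CPM. Fabp3 was higher in finer region 17, at 136 and 414 CPM, against 76.4, 31.2 and 86.0 CPM in finer region 12. Plin2 was the other way round, with 127 and 103 CPM in finer region 17, against 533, 510 and 373 CPM in finer region 12. With no spot of finer region 17 in library 3, these differences stand on 2 libraries and were not tested.

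Finer region 16, with 53.4% of its spots from region 5, had the highest Plin2 of a library, at 828 CPM in library 4, beside 435 CPM in library 3. Uterine epithelium markers summed there to 4275 and 16512 CPM in libraries 3 and 4. Library 1-2 had 8 spots of it and gives no value.

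**Figure D5:**
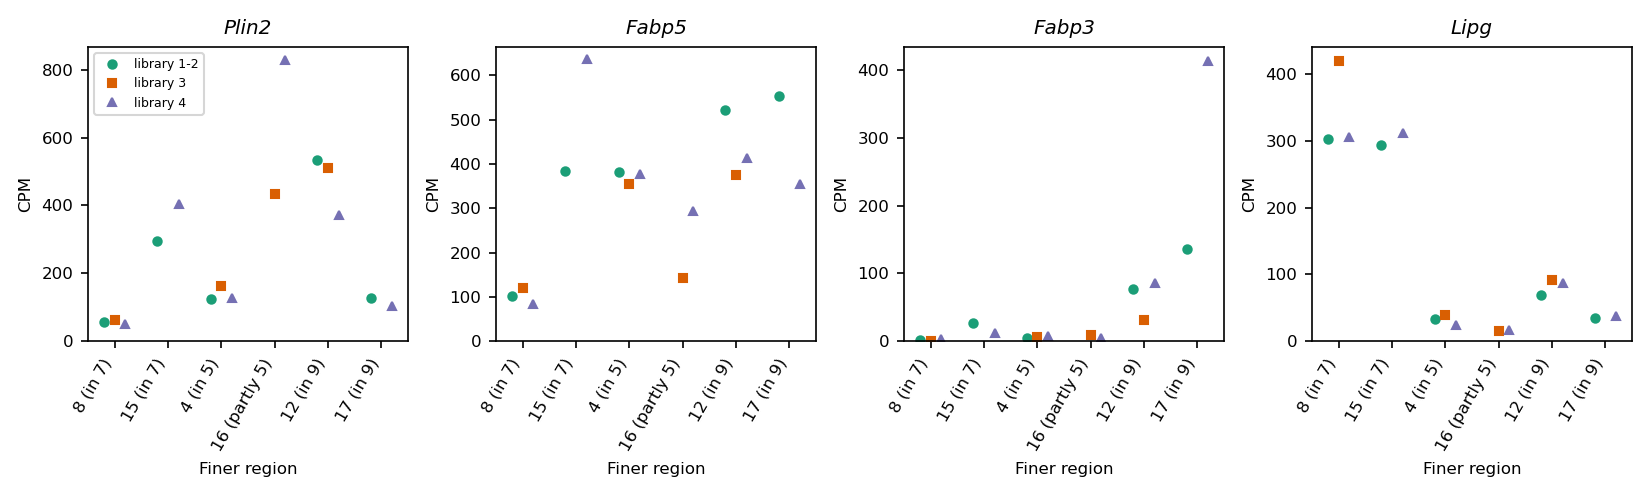
Plin2, Fabp5, Fabp3 and Lipg (CPM, y axis) in 6 finer regions (x axis, with the region they came from), with 1 symbol per library that had at least 20 spots. Plin2 and Fabp5 are high in finer region 15 and low in finer region 8, Lipg overlaps between them, and Fabp3 is highest in finer region 17.

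Pnpla2 differed least. Adipose triglyceride lipase takes the first step in the breakdown of stored triglyceride. In CPM, its level averaged between 22.8 ± 3.63 in region 9 and 44.6 ± 11.2 in region 5, a 1.96-fold range. Neighbours in this order of regions overlapped throughout. It was called in none of the 10 regions, as no change reached 1 on the log2 scale. Its changes in regions 7 (0.97 ± 0.12), 5 (0.67 ± 0.11) and 4 (-0.86 ± 0.13) had adjusted p of 3.2e-08, 3.0e-06 and 2.8e-06 (edgeR's quasi-likelihood test). These changes include the fit's scaling between sums (TMM), which CPM does not, so the order of regions differs. Region 7, with the largest change, averaged 40.8 ± 7.77 CPM, under region 5. The gene most like Pnpla2 was Fgfr2 (r = 0.87).

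The regulators of this lipase varied more than the lipase. Abhd5, its coactivator, had 244, 151 and 231 CPM in region 5, and was called higher in regions 5, 9 and 7 (1.79, 1.42 and 1.70). Hilpda, an inhibitor of the lipase that is induced by low oxygen, was called higher in the same 3 regions (2.40, 2.11 and 1.98), with 214, 174 and 257 CPM in region 5. G0s2, the other inhibitor, was called higher in regions 10, 6, 4 and 3 (2.97, 2.47, 1.77 and 1.23) and had a mean of 0.33 CPM in region 5 (-3.43 ± 0.57). Mgll, which ends the breakdown of stored fat, was called higher in regions 7 (2.74 ± 0.10) and 5 (1.99 ± 0.10). Pparg, a nuclear receptor that drives Fabp4 in fat cells, had 48 UMIs in all and was not tested.

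Other droplet genes were mixed. Bscl2, or seipin, which shapes new droplets, was called higher in region 7 (2.18 ± 0.08), with 176, 276 and 206 CPM. Plin4 was called higher in regions 1, 3 and 5 (1.90, 1.53 and 1.25) and lower in region 7 (-2.14 ± 0.39). Cidea, known from brown fat, had 11.2, 10.4 and 13.3 CPM in region 9 (5.56 ± 0.41).

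Genes that make fatty acids were called higher most often in region 3. Of 11 genes of fatty acid synthesis tested, 6 were called higher in region 3, where 8.89% of all genes were, and the list's median log2 fold change was 1.03, against 0.03 over all genes. In region 7, 5 of the 11 were lower and 1 was higher, where 17.5% and 14.4% of all genes were, with a median of -0.75. Scd1, which puts a double bond into saturated acids, had 34.9, 39.7 and 56.3 CPM in region 3 and 38.9, 44.3 and 72.1 CPM in region 4, against 0.93, 1.15 and 1.72 CPM in region 2. Elovl6, Fads1 and Fads2, which lengthen and desaturate fatty acids, were called higher in region 3 (2.14, 1.05 and 1.34).

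Of the 15 genes of fatty acid oxidation, 5 were called lower and 1 higher in region 7 (17.5% and 14.4% of all genes), with a median of -0.67, and 4 were called lower in region 9 (15.5%). Acaa2, the last step of mitochondrial oxidation, had 10.0, 3.70 and 7.80 CPM in region 7, against 192, 190 and 128 CPM in region 10. Of 9 genes of triglyceride synthesis, 3 were called higher in region 5 (14% of all genes) and 2 in each of regions 1, 2, 3 and 9 (6.33%, 7.04%, 8.89% and 13.2%), and 3 were called lower in region 2 (10.6%). Dgat2, the final step to triglyceride, was called higher in region 1 (1.59 ± 0.13), the region of Cd36, with 89.9, 58.5 and 112 CPM. Ppard, a nuclear receptor for fatty acids, was called higher in regions 9, 5 and 7 (1.43, 1.52 and 1.90).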

How the data were processed

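Each deposited matrix holds UMI counts (whole numbers, not normalized) for genes in rows and spots in columns. The headers of these files give Space Ranger, version 1.2.2, as the software, while Cell Ranger and mm10 are the tool and genome build in the submitters' processing notes. How reads were aligned, which annotation was used and how spots were filtered is not given in the sources used here. Positions of spots were not used here. GENCODE release M21 held 32158 of the gene IDs.

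Spots under 1000 UMIs (38, 1 and 0) were left out, leaving 3939 of 3978. Libraries held 16915926, 27279702 and 29953072 UMIs. Regions came from Leiden clustering (resolution 0.6) of the 1500 most variable genes of a random 16142 genes, without the 204 listed symbols. Only the other 16143 genes and the listed symbols were tested, so that no gene tested defined a region. The input was log values of counts per 10000 UMIs of a spot, centred per library and limited to 10, with 20 principal components and 15 neighbours. Doublets were not called, as spots are not single cells.

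Counts were summed per region and library (at least 20 spots), giving 30 sums of 321485 to 6607273 UMIs. After edgeR's filterByExpr, 6333 genes were fitted (edgeR 4.0.16, TMM, library block), and p-values were adjusted per region. CPM values were not scaled by TMM, so CPM and fold changes can order regions differently. Of these genes, 367 had no count in some region, and this contrast cannot call such a gene lower in another region. None of the 8 was among them. Shares have exact (Clopper-Pearson) 95% intervals that cover counting error only. Thinning to 3000 UMIs left out 168, 2 and 3 spots. The fit was tested on simulated data. Members and lists were chosen with earlier results of these data known. Genes named beside the 8 were the 3 most like each by Pearson's r (mean log2 CPM of at least 3), up to 4 per list of 9 pathway lists by size of a called change, and 6 partners; the text gives a selection of them. Whether the labelled biological replicates are separate animals is not given in the sources used here. Alternatives were DESeq2 1.42.0 (its size factors and its Wald test), no filter, no block, pooled other spots, other clusterings, at least 5000 UMIs per spot and each library left out. Software was Python 3.11.15 and R 4.3.3.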

Additional observations from a re-analysis of the deposited data

How the results depend on the processing

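The 7 called genes kept the call in their highest region by CPM under each alternative that gave a value. Pnpla2 was followed only in region 5, where it stayed uncalled (0.35 to 0.71). Its change in region 7 (0.97), closest to the threshold, was not followed under the alternatives. Of 492 values for 45 results, 435 kept direction and side of the threshold, 52 lost the call and 5 changed sign. With pooled other spots, 14 pairs were called higher and 34 lower, against 23 and 21. The changes of sign were Fabp3 in region 7 (-0.82 with at least 5000 UMIs per spot and -1.41 at resolution 1.0), Fabp4 in region 9 (-0.27, pooled other spots), Lpl in region 5 (0.17 at resolution 0.3) and Plin2 in region 7 (-0.32 at resolution 1.0). The cause was not tested. Lpl at resolution 1.0 could not be fitted in 4 regions. Without library 4, 10 of 45 results lost the call. The library is a block in the test, which sets regions of 1 library against each other. With no replicate block 1 call ended, Fabp3 in region 7 (1.08). Regions matched at a Jaccard index of at least 0.5 numbered 9 of 10 with the other gene set, 6 at resolution 0.3, 8 at resolution 1.0 and 6 with at least 5000 UMIs. DESeq2's size factors moved the median log2 fold change of all genes by -0.10 in region 2 and 0.10 in region 10. Shares of spots with a UMI moved with thinning. As means over libraries they were, at 1000 UMIs, at 3000 UMIs and unthinned, 30.2%, 45.7% and 69.7% for Fabp4, 12.8%, 30.0% and 71.6% for Fabp5, 0.982%, 1.92% and 9.29% for Fabp3, 2.97%, 8.44% and 31.1% for Cd36, 5.85%, 13.5% and 34.1% for Lipg, 0.664%, 1.34% and 6.40% for Lpl, 8.53%, 21.1% and 60.8% for Plin2, and 3.79%, 9.96% and 47.5% for Pnpla2. Depth limits Lpl (273 UMIs) and Fabp3 (837 UMIs) most.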
